A study of Mus musculus with 2 samples.

Results

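The BCL2 family sets whether a cell's mitochondria stay intact or release the factors that start caspase activation. The values given here are those of 10 of its genes, taken as listed by symbol, among the 32285 genes counted in mouse bone marrow-derived MDSCs (myeloid-derived suppressor cells). They are the anti-apoptotic genes Bcl2, Bcl2l1 (BCL-XL), Mcl1 and the A1 paralogs Bcl2a1a, Bcl2a1b and Bcl2a1d, the effector Bax, and the BH3-only genes Bcl2l11 (BIM), Bbc3 (PUMA) and Pmaip1 (NOXA). All 10 had UMIs (unique molecular identifiers, each standing for 1 captured RNA molecule) in both libraries. Marrow was taken from C57BL/6 females at 10 weeks of age, and its cells spent 4 days in GM-CSF (50 ng/mL) plus IL-6 (50 ng/mL). A first culture received 1.5 µM dabrafenib (DAB), a BRAF kinase inhibitor, throughout, and the other DMSO, its solvent, in matching volume. A 10x Genomics 5′ library was made from each, so there is 1 library per condition, and how many mice stand behind each is not stated in the labels or methods. The DMSO library held 9032 cells after filtering with a median of 7480 UMIs, and the DAB library held 10476 cells with a median of 9396. The kept cells share 126 barcode sequences between the libraries.

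Proteins of the anti-apoptotic group hold BAX and BAK1 in check on the mitochondrial surface. BH3-only proteins bind the anti-apoptotic proteins, each with its own preferences, and so free the effectors to open the outer membrane. MCL1 and A1 are both short-lived proteins that are prominent in granulocytes, and NOXA binds chiefly these 2 guardians. In myeloid cells A1 is known as an early gene induced by GM-CSF and NF-κB signalling.

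Because no condition was repeated, no test between DAB and DMSO was possible. Levels are CPM, the UMIs of a gene per 1000000 UMIs of its library or class. The libraries are of 5′ chemistry, and levels were not scaled to gene length. Genes are not ranked against each other by level. Intervals are exact 95% intervals that cover counting error only. A member is counted as higher or lower where its log2 ratio, DAB over DMSO, was at least 0.5 in size and at least 50 UMIs lay behind it.

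The A1 genes need their sequences beside their values, because the counts of each rest on the few bases that tell them apart. All lie on mouse chromosome 9 (GRCm38), Bcl2a1a at 88956900 to 88962419 on the plus strand, Bcl2a1b at 89199209 to 89207827 on the plus strand and Bcl2a1d at 88723285 to 88731914 on the minus strand. Each has 2 exons and a coding sequence of 519 bases, stop codon included. Bcl2a1a differed from Bcl2a1b at 11 bases (97.88% identity) and from Bcl2a1d at 7 (98.65%), and Bcl2a1b differed from Bcl2a1d at 6 (98.84%). Of the 12 coding positions that vary, 7 lie in the first 150 coding bases, towards the end that 5′ libraries read. The transcripts of Bcl2a1a, Bcl2a1b and Bcl2a1d hold 151, 151 and 195 bases before the coding sequence, nearer still to that end. Those bases were left out of the identities and of the windows below. The first 150 coding bases are shown 5′ to 3′ from the GENCODE M21 transcripts, with the varying positions in capitals.
Bcl2a1a: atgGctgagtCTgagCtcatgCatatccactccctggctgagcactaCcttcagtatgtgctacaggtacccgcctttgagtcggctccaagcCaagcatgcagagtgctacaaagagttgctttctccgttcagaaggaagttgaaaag
Bcl2a1b: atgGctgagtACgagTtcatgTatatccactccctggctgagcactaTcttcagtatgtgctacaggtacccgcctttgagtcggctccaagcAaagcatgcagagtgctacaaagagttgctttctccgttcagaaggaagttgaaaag
Bcl2a1d: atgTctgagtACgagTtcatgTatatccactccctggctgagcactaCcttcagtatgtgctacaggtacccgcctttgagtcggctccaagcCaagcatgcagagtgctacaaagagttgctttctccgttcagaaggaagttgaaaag

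The 90-base windows of each coding sequence were sought in the transcripts of the other A1 paralogs, the fourth one, Bcl2a1c, included. Of these windows, 57.7% in Bcl2a1a, 34.2% in Bcl2a1b and 62.1% in Bcl2a1d also occur there, letter for letter. A read confined to such a window names no single gene, so the values of the single paralogs are uncertain and their sum is given beside them. The start regions of the 3 genes were also alike. The 100 bases up to the RefSeq start of Bcl2a1a (chr9:88956820-88956919, GRCm38.p6) and the matching stretches of Bcl2a1b (chr9:89199129-89199228) and Bcl2a1d (chr9:88731851-88731950, minus strand) differ at 2 positions, in capitals.
Bcl2a1a: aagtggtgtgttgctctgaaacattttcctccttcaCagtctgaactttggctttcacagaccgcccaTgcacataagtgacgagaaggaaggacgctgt
Bcl2a1b: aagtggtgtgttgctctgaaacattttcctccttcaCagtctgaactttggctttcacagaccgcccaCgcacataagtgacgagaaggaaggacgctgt
Bcl2a1d: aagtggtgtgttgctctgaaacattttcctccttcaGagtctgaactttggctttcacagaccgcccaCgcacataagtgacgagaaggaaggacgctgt

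Just past this stretch each gene carries the letters TGATGCAA, a match to TGATGNAA, the pattern of C/EBP-ATF composite elements at which ATF4 and its partners bind. The 30 bases that end with the match read the same in Bcl2a1a (chr9:88956902-88956931), Bcl2a1b (chr9:89199211-89199240), Bcl2a1d (chr9:88731839-88731868, minus strand) and the fourth paralog, Bcl2a1c (chr9:114330007-114330036), and are shown once with the match in capitals.
Bcl2a1a: gagaaggaaggacgctgtgacaTGATGCAA
Over all 32851 RefSeq windows from 250 bases before to 50 after a start, read on both strands, 4.0% held TGATGNAA. The windows found for the other members, Bcl2, Bcl2l1, Mcl1, Bcl2l11, Bax and Bbc3, held none. A κB-like pattern, GGGA and CC with any 4 bases between them, was in the windows of Bbc3, Bcl2l11 and Bcl2a1b and in 20.7% of all windows, and a STAT-like pattern, TTCNNNGAA, was in no member's window and in 8.3% of all. The RefSeq starts of the A1 paralogs lie at different points of their matching sequence. The TGATGCAA match begins at base 5 in Bcl2a1a and Bcl2a1d and at base -40 in Bcl2a1b. The windows of Bcl2a1a and Bcl2a1d therefore end sooner past the match. Whether they carry the κB-like pattern of Bcl2a1b beyond that end was not searched. By the GENCODE gene positions given above, which differ from the RefSeq starts, the TGATGCAA match lies inside the gene in Bcl2a1a, Bcl2a1b and Bcl2a1d. All of the patterns are matches of letters, and binding was not measured.

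Over all cells the DAB library held more RNA of the A1 paralogs, Bcl2 and Bcl2l1 and less of Mcl1 and Pmaip1. Of the 10 members, 5 were higher and 2 lower. Of the 14578 genes with at least 50 UMIs, 14.9% were higher and 17.5% lower by the same limit. The members' median log2 ratio was 0.41 and that of all genes counted was -0.014. The other 3 members, Bax, Bcl2l11 and Bbc3, stayed within the limit. Near-identical A1 paralogs make up 3 of the 5 higher members and enter the members' median as 3 values. The count and the median are therefore not those of 10 independent genes.

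**Figure D1:**
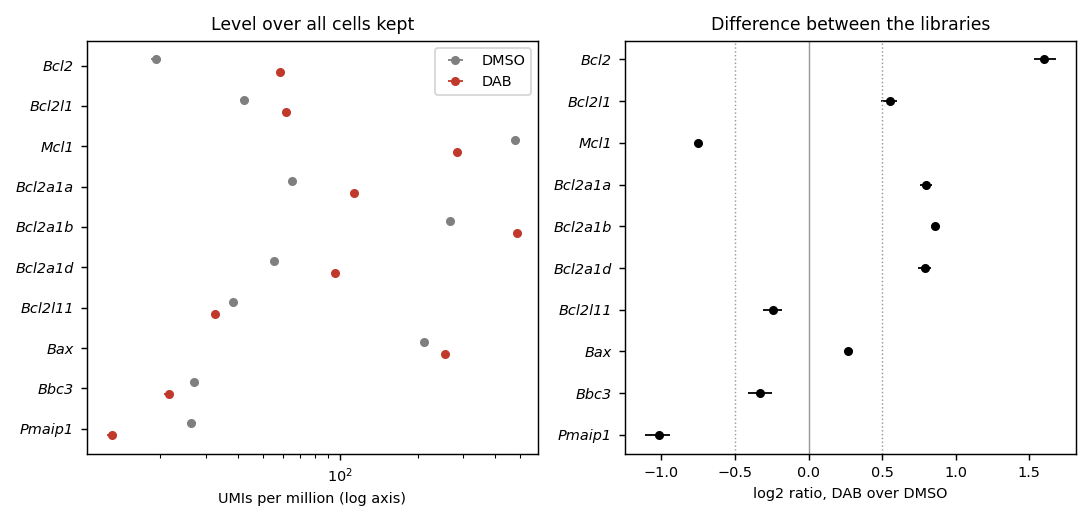
Left, level of each member in CPM over all cells kept (log axis) for DMSO (grey) and DAB (red) with exact Poisson intervals; right, log2 ratio DAB over DMSO with its exact binomial interval, with dotted lines at -0.5 and 0.5. Bcl2 lies farthest to the right at 1.60 and Pmaip1 farthest to the left at -1.02.

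Among the anti-apoptotic genes, Bcl2 showed the largest ratio. Its level was 19.2 CPM in DMSO (interval 18.3 to 20.1) and 58.3 CPM in DAB (57.0 to 59.5), a log2 ratio of 1.60 (1.53 to 1.68). Bcl2l1, whose product BCL-XL is the closest relative of BCL2 here, was at 42.2 CPM in DMSO and 61.7 CPM in DAB (log2 ratio 0.55, interval 0.49 to 0.60). Mcl1, the guardian with the most rapid turnover, stood against both. It was at 478 CPM in DMSO (473 to 482) and 285 CPM in DAB (282 to 288), a log2 ratio of -0.75 (-0.77 to -0.73). All 3 A1 paralogs were higher in DAB by like amounts. Bcl2a1b, which took most of their UMIs, was at 268 CPM in DMSO and 486 CPM in DAB (log2 ratio 0.86, 0.84 to 0.88). Bcl2a1a was at 65.2 and 113 CPM (log2 ratio 0.80) and Bcl2a1d at 55.4 and 95.6 CPM (log2 ratio 0.79). The summed level of the 3 was 389 CPM in DMSO and 695 CPM in DAB.

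On the death side, Bax, which forms the mitochondrial pore, was at 212 CPM in DMSO and 255 CPM in DAB (log2 ratio 0.27, 0.24 to 0.30). Bcl2l11, whose product binds all guardians, was at 38.4 and 32.5 CPM (log2 ratio -0.24, -0.31 to -0.18). Bbc3, a p53-responsive BH3-only gene, was at 27.1 and 21.5 CPM (log2 ratio -0.33, -0.41 to -0.25). Pmaip1, the partner of MCL1 and A1, was at 26.4 CPM in DMSO and 13 CPM in DAB, a log2 ratio of -1.02 (-1.11 to -0.94). Among the 4 death genes only Pmaip1 passed the limit, and 6.02% of all genes counted had a lower ratio than it.

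The mix of cell types also differed between the libraries, so the comparison was repeated within types. Cells were clustered without the members and without 67 other apoptosis genes, and clusters were named from fixed marker genes where these led them. Of 30 clusters, 14 received a name, and the unnamed ones held 52.3% of DMSO cells and 50.5% of DAB cells. The named clusters were of myeloid types but for a small B cell-like cluster of 139 DMSO and 187 DAB cells, and the unnamed ones were not tested against the label of myeloid cells. In all, 6 myeloid classes had at least 200 cells in each library. The chemokine-high granulocyte-like class (Ccl3, Cxcl2 and Cxcl3 high) made up 3.45% of DMSO cells and 15.4% of DAB cells. The intermediate granulocyte-like class (Camp, Ltf and Ngp) made up 10.2% and 5.71%, and the immature monocyte-like class (Spp1, Lpl and Mmp12) 11.3% and 3.96%. When the DMSO shares of the classes were used for both libraries, the same counts of 5 members higher and 2 lower were found, with Bcl2 at a log2 ratio of 1.52, Mcl1 at -0.69 and Pmaip1 at -0.82.

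**Figure D2:**
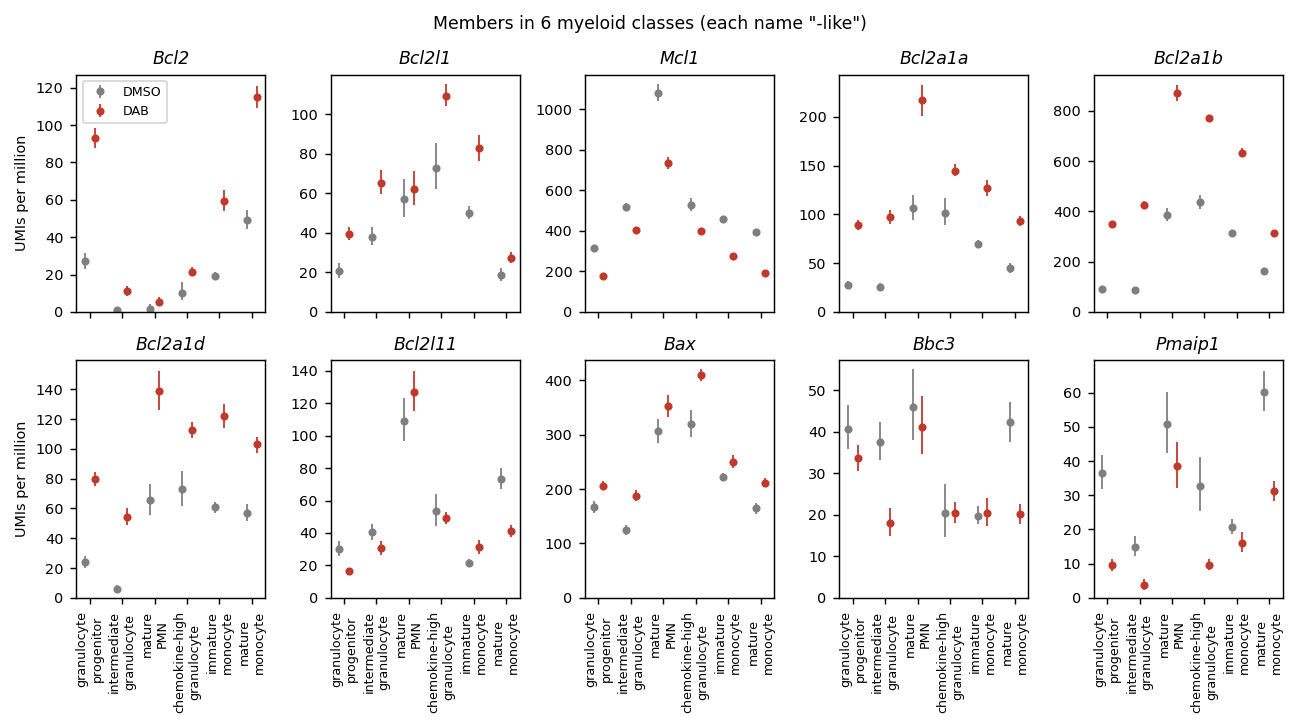
Level of each member (CPM, linear axes that start at 0) in 6 myeloid classes for DMSO (grey) and DAB (red), with exact Poisson intervals that cover counting error only. Mcl1 lay lower in DAB in each class and Bcl2a1a, Bcl2a1b and Bcl2a1d lay higher in each.

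In the granulocyte progenitor-like class (Elane, Mpo and Prtn3; 302 DMSO and 465 DAB cells), 5 members were higher and 3 lower, against 17.1% and 18.4% of all genes counted there. In the intermediate granulocyte-like class, 6 were higher and 2 lower, against 31.8% and 16.9%. In the mature PMN-like class (Csf3r, Mmp9 and Il1rn; 838 and 1055 cells), 3 of the 9 members with 50 UMIs were higher and 1 lower, against 23.2% and 10.4%. In the chemokine-high granulocyte-like class (312 and 1613 cells), 5 were higher and 1 lower, against 13.6% and 14.6%. In the immature monocyte-like class (1022 and 415 cells), 6 were higher and 1 lower, against 12.5% and 19.2%. In the mature monocyte-like class (H2-Aa, H2-Ab1 and H2-Eb1, the MHC class II genes; 364 and 480 cells), 5 were higher and 4 lower, against 18.0% and 20.2%. The members' median log2 ratio was between 0.43 and 0.69 in 5 of the classes and 0.20 in the mature PMN-like class. In each class the near-identical A1 paralogs count as 3 of the higher members and enter the median as 3 values. The median of all genes was 0.16 for intermediate granulocyte-like cells, 0.15 for mature PMN-like cells and between -0.051 and -0.011 in the other 4. With scaling by the median of ratios, which removes such a shift, 5 members were higher and 4 lower in the intermediate class, and 3 were higher and 2 lower in the mature PMN-like class. The shares of all genes above hold for CPM only. Those under this scaling are not given, so these last counts have no background beside them.

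**Figure D3:**
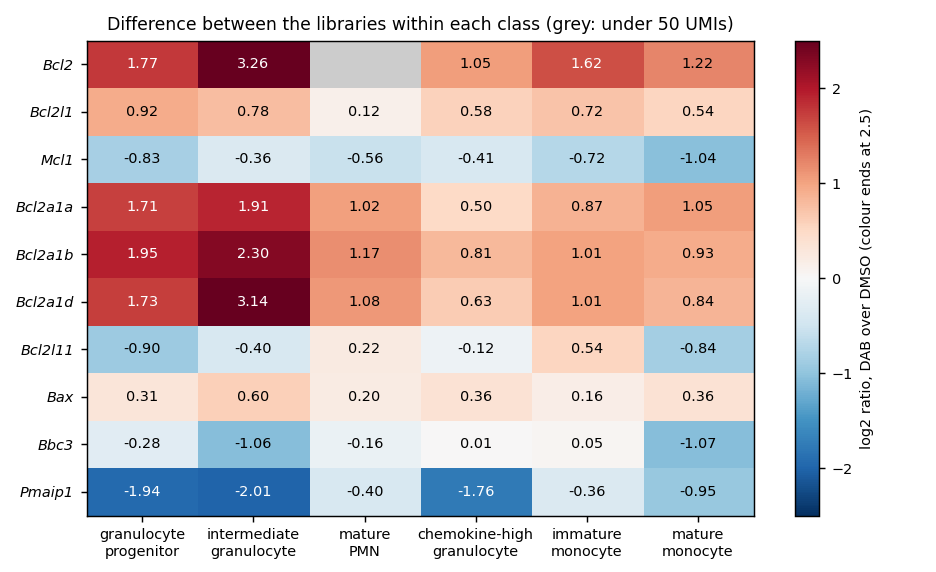
Log2 ratio DAB over DMSO of each member (rows) within 6 myeloid classes (columns); red is higher in DAB, blue is lower, and grey marks under 50 UMIs. The 3 A1 rows are red throughout, from 0.50 to 3.14, and the Mcl1 and Pmaip1 rows are blue throughout.

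The A1 paralogs were higher in DAB in all 6 classes. In granulocyte progenitor-like cells their summed level was 142 CPM in DMSO (828 UMIs) and 519 CPM in DAB (6997 UMIs), a log2 ratio of 1.87 (1.77 to 1.98). In intermediate granulocyte-like cells it was 119 CPM in DMSO (825 UMIs) and 579 CPM in DAB (3939 UMIs), a log2 ratio of 2.29 (2.18 to 2.40). Without alignment the ratio of Bcl2a1b was 1.17 in the former and 1.41 in the latter class, with only 162 DMSO and 58 DAB cells in the former. The other 4 classes had more in DMSO. Mature PMN-like cells had 559 CPM in DMSO and 1226 CPM in DAB (log2 ratio 1.13), and chemokine-high granulocyte-like cells 613 and 1028 CPM (log2 ratio 0.75). Immature monocyte-like cells had 445 and 882 CPM (log2 ratio 0.99), and mature monocyte-like cells 266 and 508 CPM (log2 ratio 0.93). Differences between classes were not tested. With Leiden resolution 0.5 the ratio of Bcl2a1b in mature monocyte-like cells was 0.41 and that of Bcl2a1d 0.30, both within the limit. Without alignment Bcl2a1d in mature PMN-like cells (0.36) and Bcl2a1a in chemokine-high cells (0.26) were within it too.

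Outside these classes A1 took other levels. Activated dendritic cell-like cells (Ccr7, Fscn1 and Ccl22; 167 DMSO and 104 DAB cells) had 1116 CPM in DMSO and 1242 CPM in DAB (log2 ratio 0.15, 0.074 to 0.24), the highest level in DMSO of the named classes and a ratio within the limit. Macrophage-like cells (C1qa, C1qb and C1qc) had 519 and 776 CPM (log2 ratio 0.58). B cell-like cells had 114 and 157 CPM (log2 ratio 0.46, 0.059 to 0.87). Basophil or mast cell-like cells had 10 UMIs in DMSO and 26 in DAB, or 21.5 and 28.6 CPM. Of the A1 genes in B cell-like cells only Bcl2a1d passed the limit, at 17.8 and 41.7 CPM (12 and 43 UMIs; 1.23, 0.28 to 2.29). RNA free in the suspension may add to such low levels, and its part in the A1 counts was not tested. The granulocyte genes S100a8, Csf3r and Camp stood in B cell-like cells at 1.50%, 4.85% and 1.59% of their levels over all cells in DMSO. Csf3r and Camp rested there on 2 and 6 UMIs. In DAB S100a8 stood at 1.37%, and Csf3r and Camp had no UMI.

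The intermediate class was made of different clusters in the 2 libraries, cluster G (806 of 920 cells) in DMSO and cluster Q (411 of 598 cells) in DAB, so its ratios partly compare different clusters. G was led by Camp, Ltf and Ngp, genes of secondary granules, and Q by Retnlg and Ly6g. Within G, Bcl2a1b was at 65.3 CPM in DMSO and 263 CPM in DAB (log2 ratio 2.01, 1.83 to 2.19). Within Q, Bcl2a1b was at 268 and 526 CPM, a log2 ratio of 0.97 (0.76 to 1.19). Bax, higher by 0.60 over the class, differed by 0.18 within G and by 0.12 within Q. Bbc3, lower in the class at -1.06, stood at -0.88 within G and at 0.074 within Q. In the chemokine-high class cluster J held 171 and 655 cells and cluster E 141 and 958, and Bcl2a1b was higher in both, by 0.92 in J and 0.78 in E. All 5 class markers were raised in E, led by Cxcl3, Ccl2, Cxcl2 and Mmp13. In J 3 of 5 were raised, and only Ccl3 was among its 10 leading genes, followed by Atp6v0d2, Gpnmb and Mpeg1. Pmaip1, lower by 1.76 over the class, stood at -1.87 in J and at -0.60 in E.

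Bcl2 was the member whose level varied most among the 6 classes. In DMSO it ran from 1.15 CPM in intermediate granulocyte-like cells to 49.2 CPM in mature monocyte-like cells. From the highest the order was mature monocyte-like, granulocyte progenitor-like (27.2 CPM), immature monocyte-like (19.4 CPM) and chemokine-high granulocyte-like (10.4 CPM), with mature PMN-like (1.60 CPM, 4 UMIs) and intermediate granulocyte-like (8 UMIs) last and not separated by their intervals. In DAB mature monocyte-like cells had 115 CPM (log2 ratio 1.22, 1.05 to 1.39), granulocyte progenitor-like cells 93.0 CPM (1.77, 1.53 to 2.02) and immature monocyte-like cells 59.3 CPM (1.62, 1.41 to 1.83). The other granulocyte-like classes of the DAB library stood below these 3. Chemokine-high cells had 21.5 CPM (1.05, 0.42 to 1.74), intermediate cells 11.0 CPM (75 UMIs) and mature PMN-like cells 5.06 CPM (17 UMIs). From its low start in DMSO, intermediate cells showed the largest Bcl2 ratio of the 5 classes counted, 3.26 (2.21 to 4.52). That class was mostly cluster G in DMSO and cluster Q in DAB, as given above. Bcl2 was therefore higher in each of the 5 classes where it had 50 UMIs. In granulocyte progenitor-like cells this depended on the clustering, with log2 ratios of 0.23 at Leiden resolution 1.5, 0.13 without alignment of the libraries and 0.17 without cell cycle regression, and in chemokine-high cells the ratio was -0.04 without alignment. The progenitor-like class was then a smaller set of cells than the 302 DMSO and 465 DAB cells above. It held 89 and 121 cells at resolution 1.5, 162 and 58 without alignment, and 186 and 126 without cell cycle regression. All of these are under the 200 cells asked of a class. Activated dendritic cell-like cells went the other way, at 15.7 CPM in DMSO and 5.97 CPM in DAB (43 and 10 UMIs; log2 ratio -1.40, -2.56 to -0.38). Basophil or mast cell-like cells had 161 and 190 CPM (log2 ratio 0.24, -0.16 to 0.65), and B cell-like cells 47.5 and 74.7 CPM (32 and 77 UMIs; 0.65, 0.04 to 1.30).

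Bcl2 is also the longest member, at 176.1 kb on chromosome 1 (106538178 to 106714274, minus strand). Among the 22 clusters with 100 or more cells from both libraries its level was highest, at 89.3 CPM in DMSO and 324 CPM in DAB, in the unnamed cluster S (219 and 290 cells), whose leading genes include Gm26917, Gria3, Kcnq5 and Neat1 and whose 10 leading genes have a median span of 468.3 kb, against 12.4 kb for all genes. Without cluster S the log2 ratio of Bcl2 over all cells was 1.58. The labels and methods do not say if intronic reads were counted, and their part in the Bcl2 counts was not tested.

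Bcl2l1 (chromosome 2, 152780668 to 152831728) was highest in chemokine-high granulocyte-like cells, at 72.9 CPM in DMSO and 109 CPM in DAB (log2 ratio 0.58, 0.34 to 0.83). Mature PMN-like cells, with 57.1 CPM, were not separated from them in DMSO. In DAB they had 61.9 CPM (log2 ratio 0.12, -0.20 to 0.44), and Bcl2l1 was not counted as higher there, though the ratio was 0.62 at Leiden resolution 0.5 and 0.66 without cell cycle regression. Without cell cycle regression the ratio was 0.40 in chemokine-high and 0.48 in intermediate granulocyte-like cells. Intermediate granulocyte-like cells had 38.0 and 65.4 CPM (0.78), with ratios of 0.56 within cluster G and 0.048 within Q. The lowest levels were in mature monocyte-like cells, 18.8 and 27.4 CPM (log2 ratio 0.54, and 0.21 at Leiden resolution 0.5). Granulocyte progenitor-like cells, not separated from them in DMSO, had 20.9 and 39.5 CPM (log2 ratio 0.92, 0.63 to 1.22). Without alignment, where the class held 162 DMSO and 58 DAB cells, that ratio was 0.23.

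Mcl1 (chromosome 3, 95658788 to 95663176) was highest in mature PMN-like cells, at 1081 CPM in DMSO (1041 to 1123) and 735 CPM in DAB (706 to 765), a log2 ratio of -0.56 (-0.64 to -0.48), which ran from -0.50 to -0.40, inside the limit, at both other Leiden resolutions, without alignment, without doublet removal and with every cluster given its nearest class. Chemokine-high and intermediate granulocyte-like cells followed in DMSO with 528 and 517 CPM and were not separated. Their ratios, -0.41 and -0.36, lay within the limit, but reached -0.51 in chemokine-high cells without alignment and -0.52 in intermediate cells with scaling by the median of ratios. Within the clusters of the intermediate class Mcl1 stood at -0.39 in G and at -0.71 in Q. Mature monocyte-like cells showed the largest ratio, 394 CPM in DMSO and 192 CPM in DAB (-1.04, -1.12 to -0.96). Granulocyte progenitor-like cells had 317 and 178 CPM (-0.83) and immature monocyte-like cells 456 and 277 CPM (-0.72). B cell-like cells had 349 and 334 CPM, a log2 ratio of -0.064 (-0.31 to 0.18). Mcl1 was thus lower in 4 of the 6 classes by the limit and below 0 in all 6. The call ended in granulocyte progenitor-like cells at Leiden resolution 1.5 (-0.40) and in immature monocyte-like cells without alignment (-0.47). Those classes then held 89 and 1379 DMSO cells and 121 and 44 DAB cells, in that order.

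Bax (chromosome 7, 45461697 to 45466898) varied less among the 6 classes. In DMSO it ran from 125 CPM in intermediate granulocyte-like cells to 320 CPM in chemokine-high granulocyte-like cells, with mature PMN-like cells at 306 CPM not separated from the latter. In DAB the same classes had 188, 410 and 352 CPM. The log2 ratios of Bax lay between 0.16 and 0.60 in the 6 classes, and only that of the intermediate class passed the limit, where it was 0.40 without alignment.

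Bcl2l11 (chromosome 2, 128126038 to 128162547) was the only member past the limit in both directions among the 6 classes. It was highest in mature PMN-like cells, at 109 CPM in DMSO and 127 CPM in DAB (log2 ratio 0.22, 0.00067 to 0.45). Immature monocyte-like cells, the lowest of the 6 classes in DMSO, had 21.4 CPM there and 31.1 CPM in DAB (0.54, 0.29 to 0.78). Mature monocyte-like cells had 73.3 and 41.1 CPM (-0.84, -1.01 to -0.66), and granulocyte progenitor-like cells 30.3 and 16.3 CPM (-0.90, -1.19 to -0.60). In granulocyte progenitor-like cells the ratio was -0.0038 at Leiden resolution 1.5, -0.19 without alignment and -0.018 without cell cycle regression, and in immature monocyte-like cells it was 0.009 without the cell filter. In mature monocyte-like cells it was -0.49 at Leiden resolution 0.5. At resolution 1.5, without alignment and without cell cycle regression the progenitor-like class was a smaller set of cells, as given for Bcl2. Activated dendritic cell-like cells had 50.1 and 91.9 CPM (0.87, 0.53 to 1.22).

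Bbc3 (chromosome 7, 16308393 to 16318205) was highest of the 6 classes in mature PMN-like cells, at 45.9 CPM in DMSO and 41.1 CPM in DAB (log2 ratio -0.16). Mature monocyte-like cells, not separated from them in DMSO, had 42.2 and 20.1 CPM (log2 ratio -1.07, -1.31 to -0.83). In granulocyte progenitor-like cells it was at 40.7 and 33.6 CPM (-0.28), in immature monocyte-like cells at 19.8 and 20.4 CPM (0.047), and in chemokine-high granulocyte-like cells at 20.4 CPM in both. The highest levels in DMSO lay outside the 6 classes. Basophil or mast cell-like cells had 161 and 60.5 CPM (75 and 55 UMIs; -1.41, -1.94 to -0.89), and B cell-like cells 69.8 and 18.4 CPM (47 and 19 UMIs; -1.92, -2.77 to -1.12).

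Pmaip1 (chromosome 18) was lower in 4 of the 6 classes by the limit. Granulocyte progenitor-like cells had 36.6 CPM in DMSO and 9.58 CPM in DAB (214 and 129 UMIs; log2 ratio -1.94, -2.26 to -1.61), and chemokine-high granulocyte-like cells 32.7 and 9.64 CPM (-1.76, -2.19 to -1.32). Intermediate granulocyte-like cells had 14.8 and 3.67 CPM (103 and 25 UMIs; -2.01, -2.71 to -1.37). Within their cluster G the ratio was -1.47 (101 and 15 UMIs). Cluster Q, with 2 and 10 UMIs (2.72 and 2.35 CPM), had too few to be counted. Of the 6 classes mature monocyte-like cells had the highest level in DMSO, 60.2 CPM, not separated from the 50.7 CPM of mature PMN-like cells, and had 31.2 CPM in DAB (-0.95). The ratios of mature PMN-like cells (-0.40) and immature monocyte-like cells (-0.36) lay within the limit, but ran to -0.93 in the former without alignment and to -1.64 in the latter at Leiden resolution 0.5. Activated dendritic cell-like cells differed least, with 87.4 and 88.9 CPM (0.024, -0.28 to 0.33).

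Because 52.3% of DMSO and 50.5% of DAB cells had no class name, each member was also followed over the 22 clusters that held 100 or more cells from both libraries. Over 204 pairs of a member and a cluster with at least 50 UMIs, 91 were higher and 39 lower in DAB. Over all 171449 pairs of a gene and a cluster these shares were 17.8% and 15.8%. Most of the 91 higher pairs were of the near-identical A1 paralogs, 18 of Bcl2a1a, 20 of Bcl2a1b and 19 of Bcl2a1d. The 204 pairs are therefore not of 10 independent genes. Bcl2a1b was above 0 in all 22 clusters and past the limit in 20, the exceptions being the B cell-like and activated dendritic cell-like clusters. Mcl1 was below 0 in all 22, and past the limit in 15, with ratios from -1.04 to -0.064. Bcl2 was counted in 16 clusters, higher in 15 and lower in activated dendritic cell-like cells. In cluster Q, no Bcl2 UMI was found among the DMSO cells. Bcl2l1 was higher in 12 of 21 and lower in none. Pmaip1 was lower in 13 of 18, and above 0 only in activated dendritic cell-like cells. Bcl2l11 was higher in 4 and lower in 7 of 22, Bbc3 higher in 1 and lower in 3 of 18, and Bax higher in 2 and lower in none of 22. These calls do not use the intervals. The cluster with Bbc3 higher, E, had a ratio of 0.58 with an interval of -0.18 to 1.45. Intervals also crossed 0 for Bcl2l11 in W (0.64, -0.13 to 1.44) and T (-0.63, -1.34 to 0.076), and for Pmaip1 in E, H and S.

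**Figure D4:**
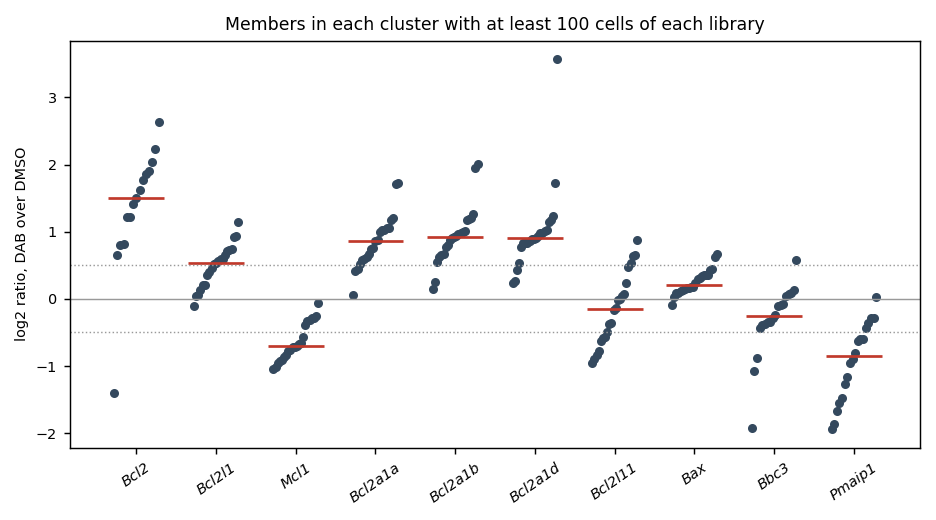
Log2 ratio DAB over DMSO of each member in each of 22 clusters holding 100 or more cells from both libraries (1 point per cluster with at least 50 UMIs and UMIs in both libraries, sorted by value; red bar, median over clusters); dotted lines mark -0.5 and 0.5. Mcl1 lies below 0 and Bcl2a1b above 0 in all 22 clusters, while Bcl2l11 spreads over both sides, from -0.95 to 0.87.

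The A1 paralogs also differed in how they shared their UMIs. Over all cells Bcl2a1a, Bcl2a1b and Bcl2a1d took 16.8%, 69.0% and 14.3% of their summed UMIs in DMSO and 16.3%, 69.9% and 13.7% in DAB. The split varied more between cell types than between libraries. The share of Bcl2a1d was 21.5% in mature monocyte-like cells of DMSO (19.7 to 23.4) and 20.2% in those of DAB. In intermediate granulocyte-like cells it was 5.21% in DMSO (43 of 825 UMIs, 3.80 to 6.96) and 9.39% in DAB (8.50 to 10.3). Bcl2a1d was there at 6.19 CPM in DMSO and 54.4 CPM in DAB (log2 ratio 3.14, 2.68 to 3.63), and at a ratio of 1.65 without alignment. Within cluster G its share was 3.10% in DMSO (17 of 549 UMIs, 1.81 to 4.91) and 8.95% in DAB and its ratio 3.57 (2.80 to 4.42). Within cluster Q the shares were 9.42% and 9.53% and the ratio 0.93, beside 0.97 for Bcl2a1b.

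B cell-like cells held almost no Bcl2a1a. In DMSO 0 of 77 A1 UMIs were Bcl2a1a, which allows a share of up to 3.90% by the 3-count limit and 4.68% by the Clopper-Pearson bound, and in DAB 1 of 162 was (0.617%, 0.0156 to 3.39). The share of Bcl2a1a in the 6 myeloid classes was between 14.1% and 21.7%. Since reads that fit more than 1 paralog name none, these are shares of the UMIs that could be placed.

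**Figure D5:**
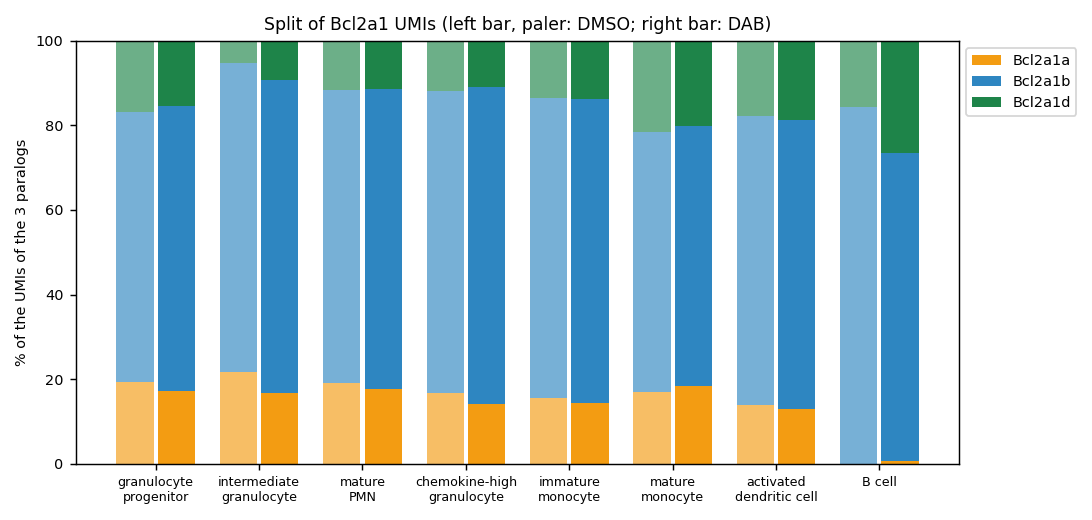
Share of Bcl2a1a (orange), Bcl2a1b (blue) and Bcl2a1d (green) in the summed UMIs of the 3 paralogs, in percent, for 8 cell classes (left, paler bar: DMSO; right bar: DAB). The Bcl2a1d share is smallest in intermediate granulocyte-like cells of DMSO, at 5.21%, and Bcl2a1a is all but missing in B cell-like cells.

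The same pattern was seen in the share of cells with a UMI. Cells were thinned at random to 1500 UMIs each, and 436 cells of DMSO and 292 of DAB fell below that depth. The share of cells with a Bcl2a1b UMI was then 28.9% (27.9 to 29.8) in DMSO and 52.6% (51.6 to 53.6) in DAB, against 63.2% and 87.5% without thinning. In B cell-like cells, with median depths of 3976 and 4828 UMIs, these shares were 10.2% and 11.0%. The share with a UMI of any A1 gene was 37.2% in DMSO and 63.7% in DAB. For Mcl1 the share was 53.8% (52.7 to 54.9) in DMSO and 41.6% (40.7 to 42.6) in DAB, against 90.8% and 88.2% without thinning. In mature PMN-like cells the share with Mcl1 was 75.0% in DMSO and 64.0% in DAB, and that with any A1 gene 49.1% and 77.0%.

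Counted together, at least 1 of the 6 anti-apoptotic members was seen in 74.0% of cells (73.1 to 75.0) in DMSO and 81.1% (80.3 to 81.8) in DAB. At least 1 of the 3 BH3-only members was seen in 14.0% (13.3 to 14.7) and 12.3% (11.7 to 13). Without thinning the BH3-only share was 45.5% in DMSO and 46.3% in DAB. By class the thinned BH3-only share was 8.54% and 12.8% in immature monocyte-like and 24.9% and 26.4% in mature PMN-like cells. It was 25.3% and 12.9% in mature monocyte-like and 10.0% and 5.38% in granulocyte progenitor-like cells. Intermediate granulocyte-like cells had 13.4% and 8.08%, and chemokine-high cells 18.7% and 15.7%. The share with Bcl2 was 1.88% in DMSO and 4.93% in DAB, with Bax 26.5% and 32.6% and with Pmaip1 3.48% and 2.36%. These shares fall far below the unthinned ones, 10.7% and 27.6% for Bcl2, because 1500 UMIs miss most molecules of genes at these levels.

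Other apoptosis genes were also counted. Of 67 other listed genes 63 had at least 50 UMIs, and 11 of these were higher and 10 lower, with a median log2 ratio of -0.026. Over all genes 14.9% were higher and 17.5% lower, so these counts are near the background. In the family itself, Bid, the BH3-only gene cut by caspase-8, was at 14.1 CPM in DMSO and 29.2 CPM in DAB (log2 ratio 1.05, 0.96 to 1.14). Bmf, whose BH3-only protein is held at the cytoskeleton, was at 11.1 and 3.77 CPM (-1.56, -1.71 to -1.41). Bcl2a1c, the fourth A1 paralog, was at 3.29 and 5.42 CPM (0.72). Bcl2l13, a mitophagy receptor, was at 27.7 and 19.1 CPM (-0.54). The other measured relatives lay within the limit. Bak1, the second effector, stood at a log2 ratio of 0.36, Bad at 0.28, Bcl2l12 at 0.12, Bik at -0.026, Bcl2l14 at -0.19, Bcl2l2 (BCL-W) at -0.24, and the mitophagy genes Bnip3l and Bnip3 at -0.29 and -0.49. Bok, Bcl2l10, Bcl2l15 and Hrk had under 50 UMIs.

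Of the other lists, 4 of 8 genes of the integrated stress response (the pathway in which eIF2α kinases induce ATF4) were higher and 1 lower, against the same 14.9% and 17.5% of all genes. These 4 included the largest ratios of the lists outside the BCL2 family, Chac1 at 4.03 CPM in DMSO and 27.9 CPM in DAB (log2 ratio 2.79) and Trib3 at 15.5 and 94.6 CPM (2.61), both ATF4 target genes. The lowest ratios of these lists were those of Trim17, which codes for a ubiquitin ligase of MCL1 (1.16 and 0.444 CPM; -1.39), and of the stress gene Atf3 (57.6 and 23.8 CPM; -1.27). Among 11 p53 and p53 target genes 3 were higher and 1 lower, among 8 caspases none was higher and 2 lower, among 11 apoptosome and IAP genes 1 was higher and 2 lower, among 10 death receptor genes 1 was higher and 1 lower, and among 4 genes of MCL1 turnover none was higher and 1, Trim17, lower.

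The genes whose levels over the DMSO clusters were most like each member's were sought among 5490 genes, by Pearson's r of log2 levels over 24 clusters. The points share a library and some of its depth, so r is a description. The closest to Bcl2a1b were its own paralogs, Bcl2a1d (r = 0.88) and Bcl2a1a (r = 0.87), and over 25 DAB clusters these stood at 0.91 and 0.89. Mcl1 was closest to Fas, the death receptor gene, at 0.92 in DMSO and 0.92 in DAB, and to Mthfs at 0.91 and 0.88. Among the members Mcl1 was most like Bcl2l11, at 0.76 and 0.85, and least like Bcl2, at -0.61 and -0.73. Bax was closest to Atp6v1g1 (0.95 and 0.93) and Elob (0.93 and 0.89), Bcl2l1 to Alcam (0.93 and 0.86) and Plekhg1 (0.92 and 0.90), and Bcl2 to Ablim1 (0.89 and 0.85) and Pik3cd (0.89 and 0.87). Bcl2a1a was closest to Efhd2 (0.93 and 0.79) and Atox1 (0.92 and 0.83), Bcl2a1d to Batf3 (0.89 and 0.61) and Stard3nl (0.89 and 0.69), and Bcl2l11 to Pnrc1 (0.88 and 0.81) and Ip6k1 (0.87 and 0.75). The nearest to Bbc3, Ccnk and Ccni, stood at 0.81 and 0.80 in DMSO and at 0.50 and 0.51 in DAB. Of the nearest to Pmaip1, Hmg20b stood at 0.81 in both libraries and Ubxn4 at 0.81 in DMSO and 0.23 in DAB.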

How the data were processed

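The 10x Genomics 5′ v2 libraries analysed were 1 of MDSCs grown with DAB and 1 with DMSO. The authors deposited raw UMI counts per gene and barcode, without normalization, from Cell Ranger 7.0.0 (as named in the submitters' processing notes) and the mm10 reference. As deposited, DMSO held 9855 barcodes and 106792967 UMIs, and DAB 11631 barcodes and 165506902 UMIs, with 152 barcode sequences in both.

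Barcodes over 10% mitochondrial UMIs were left out (55 DMSO, 89 DAB), none lay beyond 4 median absolute deviations of UMIs or genes, and doublets were removed by simulated doublets at 0.8% per 1000 cells, which left 92044321 and 139728733 UMIs. Pearson residuals (theta 100) of 3000 variable genes, without the 77 members and apoptosis genes, had cell cycle and mitochondrial scores regressed out. They were reduced to 40 principal components, aligned by mutual nearest neighbours (k = 20) and clustered with Leiden at resolution 0.9 (seed 1), with leidenalg 0.10.2, igraph 0.11.9, scikit-learn 1.9.0, pandas 2.3.3, scipy 1.17.1, numpy 2.4.6 and matplotlib 3.10.9 under Python 3.11.15. Of 15 marker lists, a cluster took the name of the list with the highest mean log2 fold over other clusters (10 CPM added), if at least 3 markers and most of those detected reached 1 and its own markers led the 10 leading genes. For granulocyte names S100a8 or Csf3r had to be raised as well.

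UMIs were summed per library and class. Levels carry exact Poisson, ratios exact conditional binomial and shares Clopper-Pearson intervals at 95%, for counting error only. Genes at 0 in a library entered calls at 3 counts. Reads of the A1 paralogs, and of Bcl2 and Bax, whose annotated spans overlap other genes, may be lost or shared.

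The members and lists were chosen with earlier results of these data known. Named beside the members were all genes of the BCL2 family lists with 50 UMIs, the 2 largest ratios per direction of the remaining lists, and the 2 genes most like each member over clusters, among genes with at least 20 CPM in DMSO and over clusters of at least 100 DMSO cells. Sequences are from GENCODE M21 (GRCm38) and RefSeq (GRCm38.p6). RefSeq start windows were found for 9 of the 10 members. In simulated counts over all cells with 200 of 14460 genes changed by 1 on the log2 scale, 95.4% of true ratios lay in their intervals, 99.5% of changed genes and 1.82% of unchanged genes passed the limit. The counts were drawn with Poisson error only, as the intervals assume, without variation between cultures or in cell mix. The simulation therefore checks the computation, and 1.82% is not an error rate for calls in the real libraries. The alternatives tried were other cell filters, doublet handling, scaling, weighting, thresholds, clusterings and class naming.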

Additional observations from a re-analysis of the deposited data

Results flagged for a closer look

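Bcl2l11 (BIM) stood out because its ratio had opposite signs in different classes. The log2 ratio, DAB over DMSO, in immature monocyte-like cells was 0.54 (interval 0.29 to 0.78). In granulocyte progenitor-like cells it was -0.90 (-1.19 to -0.60), with mature monocyte-like cells at -0.84. With 1 library per condition the difference between classes was not tested. Over 9 alternatives the value in immature monocyte-like cells ran from 0.009 to 0.83 and that in granulocyte progenitor-like cells from -0.93 to -0.0038. The latter class held only 89 DMSO and 121 DAB cells at the setting that gave -0.0038.

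Bcl2 also stood out, though not alone, in barcodes that the report does not use, those over 10% mitochondrial UMIs. Its level there was 140 CPM in DMSO (15 UMIs in 55 barcodes) and 362 CPM in DAB (87 UMIs in 89 barcodes), a log2 ratio of 1.37 (0.57 to 2.27). Both levels lay above those of the cells kept, 19.2 and 58.3 CPM. Bcl2l1 also lay above, at 121 CPM in DMSO (13 UMIs) and 192 CPM in DAB (46 UMIs), against 42.2 and 61.7 CPM. So did Bcl2l11, at 121 CPM (13 UMIs) and 83.3 CPM (20 UMIs), against 38.4 and 32.5 CPM. The values of all other members lay below those of the cells kept in both libraries, many on few UMIs. Only for Bcl2a1b and Bax did the interval also lie below the kept level in both. For Bbc3 (1 and 4 UMIs) and Pmaip1 (2 and 3 UMIs) it held the kept level in both libraries. It did so for Bcl2a1a in DMSO (3 UMIs), and for Mcl1 and Bcl2a1d in DAB. In the same barcodes Bax had no UMI in DMSO and 10 in DAB (41.6 CPM).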

How the results depend on the processing

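No paired analysis was possible because each condition has 1 library. Over all cells the counts of 5 members higher and 2 lower in DAB were the same under no cell filter, no doublet removal, a mean over cells, scaling by the median of ratios, DMSO class shares in both libraries, minimums of 200 and of no UMIs, and without cluster S (an alternative chosen after seeing the data), while a limit of 1 on the log2 scale left 1 higher and 1 lower. Over the 6 of these that change a ratio, Bcl2 ran from 1.52 to 1.65, Mcl1 from -0.75 to -0.54, Pmaip1 from -1.03 to -0.67, Bcl2a1b from 0.86 to 1.09 and Bcl2l11 from -0.25 to 0.069. Shares of all genes past the limit under the alternatives, the limit of 1 among them, are not given. The member counts of this section therefore have no background beside them. By class, mature PMN-like cells had 5 higher at Leiden resolution 0.5. They had 0 lower at resolutions 0.5 and 1.5, without doublet removal and with every cluster given its nearest class, and 2 lower without cell cycle regression, without the cell filter and on the median of ratios. Immature monocyte-like cells had 2 lower at both resolutions, without cell cycle regression, without doublet removal, without the cell filter, with the members among the genes clustered and with nearest classes, and 0 lower without alignment. Mature monocyte-like cells had 2 higher at resolution 0.5, without alignment and with nearest classes. Granulocyte progenitor-like cells had 1 lower at resolution 1.5 and 3 higher without alignment, chemokine-high cells 3 higher and 3 lower without alignment, and intermediate granulocyte-like cells 4 lower on the median of ratios. The alternative clusterings also changed which cells a class held. Granulocyte progenitor-like cells were 89 in DMSO and 121 in DAB at resolution 1.5, and 162 and 58 without alignment. Immature monocyte-like cells were 1379 and 44 without alignment. Without alignment the log2 ratio of Bcl2 in chemokine-high cells was -0.04, a reversal. The highest class in DMSO was the same for 7 of the 10 members at each resolution and without alignment, and for 6 with the members among the genes clustered. The cause was not tested in any of these. Of the members' shares of cells with a UMI, 6 were higher in DAB with intervals apart after thinning and 7 without it. Depth limits Bcl2 in granulocytes, with 8 and 4 DMSO UMIs in the intermediate and mature classes.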
